A study of Homo sapiens with 2 samples.

Results

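The genes described here encode the enzymes of cholesterol and fatty acid synthesis, the proteins that sense sterols and switch these enzymes on, and a few carriers and enzymes that pass sterols and fatty acids on. The set has 41 genes, taken by gene name from the deposited expression table, and 39 of them were compared, out of 12405 named genes compared in all. A gene with several loci of its name was represented by the locus with the highest mean. ACAT2 and ACACA were not analysed here. The values come from polyadenylated RNA of SBC5, an established line of small cell lung cancer cells. There were 2 libraries: 1 of the parental cells and 1 of a cisplatin-resistant derivative that had been exposed to cisplatin, which crosslinks DNA, in steps of 1, 2, 4 and 20 µg/ml. Both cell lines were kept at 37 °C under 5% CO2 in RPMI 1640 medium with 10% fetal bovine serum, a source of lipoprotein cholesterol and fatty acids for both. The resistant cells are a single selected line, and whether the drug was present when RNA was taken is not given in the sources used here. With 1 library per group there was no replicate, no error and no test, so each difference below describes these 2 libraries.

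Cells make cholesterol from acetyl-CoA, first by the mevalonate pathway to farnesyl diphosphate, then through squalene and lanosterol, and lastly by a series of reductions, demethylations and isomerizations of the sterol ring. The genes of this route share a set of transcription factors, the SREBPs, which are made as membrane proteins of the endoplasmic reticulum. When membrane sterol is low, SCAP escorts the SREBPs to the Golgi, where a pair of proteases cut them free to enter the nucleus. When sterol is high, the INSIG proteins hold SCAP back. SREBF2 mainly drives sterol genes, and SREBF1 mainly drives genes of fatty acid synthesis and desaturation.

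The SREBPs bind the sterol response element, often beside a CCAAT box bound by NF-Y, so both were looked for in the promoters. A table from RefSeq (GRCh38.p14) gave a promoter, 250 bases before to 50 after the start site, for 36 of the 39 genes. The promoters of FASN, FDFT1 and SQLE were not analysed here. The short form of the sterol element, TCACNCCA on either strand, lay in 3 of 36 (8.33%), those of SREBF2, MVK and MSMO1, against 3.93% of all 27305 promoters and 3.27% of those of 9362 compared genes. Its longer form TCACNCCAC, which contains the short form, lay in 1 of 36 (2.78%), that of SREBF2, against 1.15% and 1.04%. TCACGTGA, the E-box form, lay in 1 of 36 (2.78%), that of INSIG1, against 1.04% and 1.99%. A CCAAT box lay in 21 of 36 (58.3%), against 35.7% and 37.0%. The GC box GGGCGG lay in 31 of 36 (86.1%), against 44.6% and 71.3%. The 21 genes with a CCAAT box had a median log2 ratio of -0.31 between the libraries. Those with a promoter here but no CCAAT box had -0.16. For the GC box these medians were -0.29 with and -0.17 without it. For each other motif searched, the median was also lower in genes with the motif, so this contrast is not particular to the CCAAT box. It was not computed over all compared genes, and its cause was not tested. A match here is a run of letters and not a shown binding site.

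The 200 bases before the RefSeq start site are shown for the 4 genes with a form of the sterol element. They are also shown for the 3 genes with the lowest resistant to parental ratio (ACSL3, SCD and STARD4). These 3 held a CCAAT box and neither form of the element. The gene positions given below come from another annotation, GENCODE. For each gene shown, its GENCODE span begins further upstream, so some or all of the bases shown lie inside it. Capitals mark TCACNCCA, TCACGTGA and CCAAT, the last also as its reverse complement ATTGG, and each line reads in the direction of the gene.

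SREBF2, chr22:41832905-41833104, plus strand: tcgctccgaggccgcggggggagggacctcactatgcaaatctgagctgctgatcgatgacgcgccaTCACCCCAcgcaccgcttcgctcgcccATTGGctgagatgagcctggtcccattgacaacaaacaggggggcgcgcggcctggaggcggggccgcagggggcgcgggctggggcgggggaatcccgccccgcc

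INSIG1, chr7:155297678-155297877, plus strand: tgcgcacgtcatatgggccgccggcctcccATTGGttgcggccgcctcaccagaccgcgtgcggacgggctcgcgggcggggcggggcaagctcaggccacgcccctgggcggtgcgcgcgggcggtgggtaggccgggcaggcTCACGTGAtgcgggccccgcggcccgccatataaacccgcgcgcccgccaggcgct

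MVK, chr12:109573594-109573793, plus strand: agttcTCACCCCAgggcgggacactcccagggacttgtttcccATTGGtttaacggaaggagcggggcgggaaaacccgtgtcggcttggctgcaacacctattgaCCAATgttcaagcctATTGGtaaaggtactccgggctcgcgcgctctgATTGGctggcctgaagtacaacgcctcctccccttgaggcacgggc

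MSMO1, chr4:165327469-165327668, plus strand: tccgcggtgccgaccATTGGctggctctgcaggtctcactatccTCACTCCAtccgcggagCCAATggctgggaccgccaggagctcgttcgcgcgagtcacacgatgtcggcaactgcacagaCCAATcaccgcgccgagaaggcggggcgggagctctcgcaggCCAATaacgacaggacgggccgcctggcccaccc

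STARD4, chr5:111512536-111512735, minus strand: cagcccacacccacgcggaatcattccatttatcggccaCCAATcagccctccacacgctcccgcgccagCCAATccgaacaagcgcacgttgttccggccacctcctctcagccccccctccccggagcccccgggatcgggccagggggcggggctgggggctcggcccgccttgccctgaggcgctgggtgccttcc

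SCD, chr10:100347033-100347232, plus strand: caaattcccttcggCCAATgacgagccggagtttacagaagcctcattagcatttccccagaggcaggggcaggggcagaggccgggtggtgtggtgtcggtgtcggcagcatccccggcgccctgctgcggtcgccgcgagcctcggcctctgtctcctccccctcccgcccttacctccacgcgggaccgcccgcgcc

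ACSL3, chr2:222860836-222861035, plus strand: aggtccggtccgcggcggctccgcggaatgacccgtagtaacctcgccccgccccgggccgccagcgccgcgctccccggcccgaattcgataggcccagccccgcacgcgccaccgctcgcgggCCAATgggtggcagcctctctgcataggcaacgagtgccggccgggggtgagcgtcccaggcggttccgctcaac

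The comparison asked how transcripts of these genes differ between resistant and parental cells. Levels are FPKM, fragments scaled to locus length and library size, so that levels of different genes can be set side by side. The log2 ratio divides the resistant by the parental level after 1 is added to each, which understates differences of low genes. Most of the set was lower in the resistant library: 34 of 39 genes lay below 0, against 55.6% of all 12405 genes, and the median log2 ratio was -0.28 against -0.04. No p-value stands behind these counts. Among the 8865 genes at least as abundant as the least abundant member, 59.1% lay below 0 and the median was -0.05.

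The differences were small. A log2 ratio of -0.5 or lower is a 1.41-fold difference after 1 is added to each level. It was reached by 8 of 39 genes against 8.23% of all genes: ACSL3, SCD, STARD4, INSIG1, ACSL4, SREBF2, FDFT1 and FASN. A ratio of 0.5 or higher was reached by 0 of 39 against 9.11% of all genes. A log2 ratio of -1 or lower was reached by 2 of 39 genes (ACSL3 and SCD) against 2.7% of all genes, and 1 or higher by 0 against 3.28%. STARD4 was 2.09-fold lower in FPKM but lay at -0.96 after 1 was added. The counts moved with the scaling. Dividing both libraries to an equal sum of FPKM gave 35 of 39 genes below 0, with 66.0% of all genes, and 13 at -0.5 or lower, with 10.6% of all genes. An equal sum without the MTRNR2L loci gave 30 of 39 below 0, with 46.3% of all genes. It gave 5 at -0.5 or lower, with 7.05% of all genes, and 1, ELOVL1, at 0.5 or higher, with 10.6%. Division by the median ratio gave 33 of 39 below 0, with 49.6%.

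**Figure D1:**
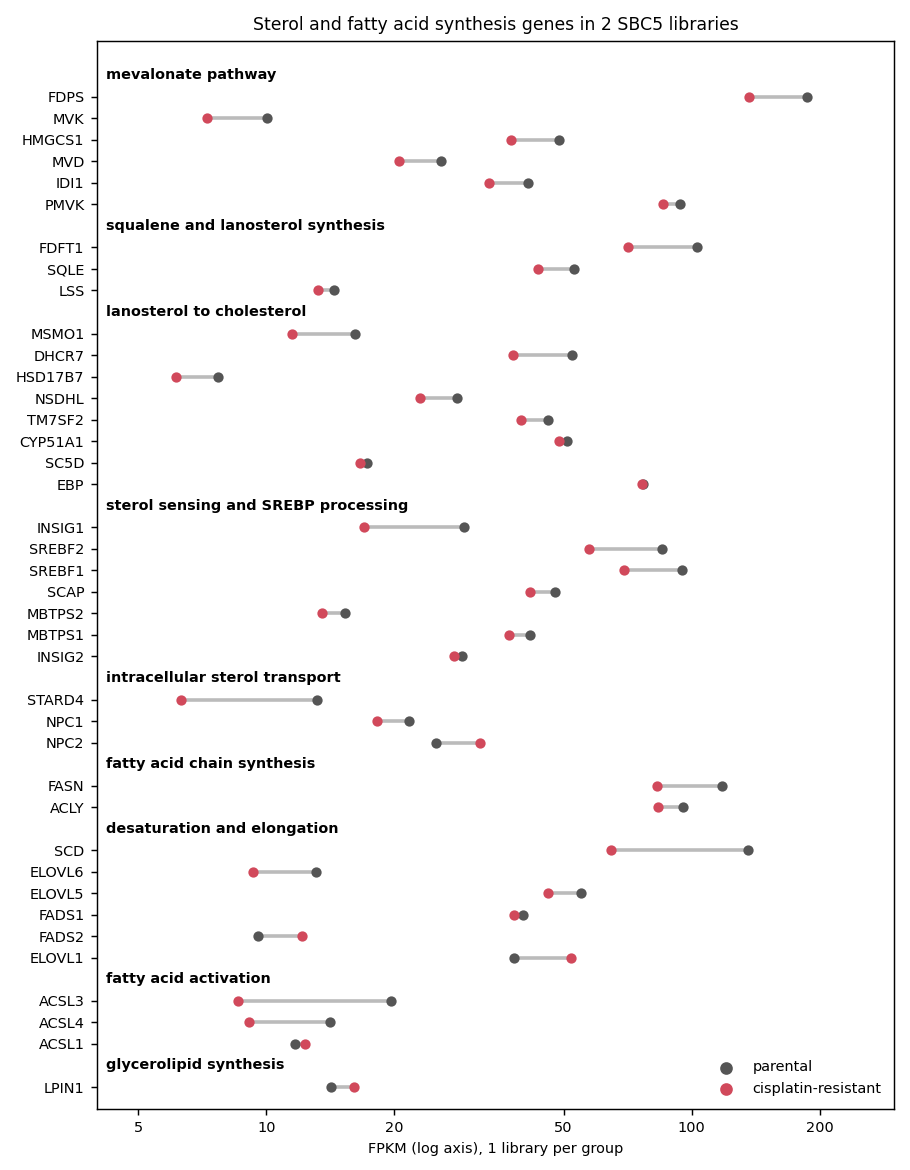
FPKM of the 39 genes on a log axis, parental in grey and cisplatin-resistant in red, 1 library each, grouped by role and sorted by log2 ratio within a group. The red point lies left of the grey point for 34 genes, with the widest gaps at ACSL3, SCD and STARD4, and right of it for 5.

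In the mevalonate pathway, the median was -0.34. Each of the 6 genes compared was lower in the resistant library, against 55.6% of all genes. The 6 genes summed to 407 FPKM in the parental library and 321 FPKM in the resistant library. HMGCS1, which makes HMG-CoA, had 48.7 FPKM (parental) and 37.7 FPKM (resistant), a log2 ratio of -0.36. The kinases that follow differed from each other: MVK had 10.01 and 7.25 FPKM (-0.42), and PMVK had 93.8 and 85.6 FPKM (-0.13). The decarboxylase MVD had 25.7 and 20.5 FPKM (-0.31), and the isomerase IDI1 had 41.2 and 33.4 FPKM (-0.29). FDPS, which joins the isoprenoid units into farnesyl diphosphate, was the most abundant gene of the set, with 187 and 136 FPKM (-0.46). The lowest and highest ratios of this group were thus those of FDPS and PMVK. A further locus named IDI1 had 0.632 and 2.20 FPKM (0.97).

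Beyond farnesyl diphosphate the pathway commits to sterols. FDFT1, squalene synthase, had 103 FPKM (parental) and 71.0 FPKM (resistant), a log2 ratio of -0.53, the lowest ratio among the sterol enzymes. It lay at -0.46 with an equal sum without MTRNR2L loci and at -0.49 after division by the median ratio. The next enzyme, the epoxidase SQLE, had 53.0 and 43.5 FPKM (-0.28), and the cyclase LSS, which forms lanosterol, had 14.4 and 13.3 FPKM (-0.11). So the ratio moved towards 0 along these 3 steps. FDFT1 lies on chromosome 8 from 11795573 to 11839309 (GENCODE release 29, GRCh38), and a minor locus of that name had 0.506 and 1.11 FPKM.

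The 8 genes that turn lanosterol into cholesterol had a median of -0.24, and some were lower while others were nearly equal. MSMO1, which removes methyl groups from the ring, had 16.2 and 11.5 FPKM (-0.46), and DHCR7, a reductase of the last step, had 52.4 and 38.1 FPKM (-0.45). The enzymes that work with MSMO1 lay closer to 0, with 28.0 and 23.0 FPKM for NSDHL (-0.28) and 7.71 and 6.14 FPKM for HSD17B7 (-0.29). TM7SF2, a reductase, shared its locus with VPS51, so that the 46.0 and 39.6 FPKM (-0.21) belong to both. The remaining 3 were nearly equal: the demethylase CYP51A1 with 50.9 and 48.8 FPKM (-0.06), the desaturase SC5D with 17.2 and 16.6 FPKM (-0.05) and the isomerase EBP with 76.9 and 76.4 FPKM (-0.01). All 17 sterol enzymes compared lay below 0 on the deposited scaling, against 55.6% of all genes. With an equal sum without MTRNR2L loci, CYP51A1, SC5D and EBP lay above 0, which left 14 of 17, against 46.3% of all genes. After division by the median ratio EBP lay above 0, which left 16 of 17, against 49.6%. Reads of FDPS, CYP51A1, HSD17B7, SCD and FADS2 may be shared with near-identical copies, since GENCODE names 8, 3, 2, 1 and 1 pseudogenes after them. None of these copies had a locus of its own name here, and how such reads were assigned is not given in the sources used here, so these values are uncertain.

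Of the genes that sense sterols, INSIG1 stood lowest, with 29.2 FPKM (parental) and 17.01 FPKM (resistant), a log2 ratio of -0.75. Its paralogue INSIG2 had nearly the same level in parental cells, 28.9 FPKM, and 27.6 FPKM in resistant cells (-0.06). The pair was level in the parental library and apart in the resistant library. INSIG1 is itself a target of the SREBPs and serves as their feedback brake. Its position is chr7:155297776-155310235, plus strand. SREBF2 had 85.2 and 57.3 FPKM (-0.56, and -0.497 with an equal sum without MTRNR2L loci), and SREBF1 had 95.1 and 69.4 FPKM (-0.45). SREBF2 lies on chromosome 22 from 41833079 to 41907308, and its promoter is the one above with the longer sterol element. The escort SCAP had 47.7 and 41.6 FPKM (-0.19). The Golgi proteases differed little between libraries, with 41.7 and 37.3 FPKM for MBTPS1 (-0.16) and 15.3 and 13.5 FPKM for MBTPS2 (-0.17). All 7 genes of this group lay below 0, against 55.6% of all genes. INSIG2 did so only on scalings other than the equal sum without MTRNR2L loci, where it had 0.0020.

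STARD4, a soluble carrier that moves cholesterol between membranes and a target of SREBF2, was the lowest sterol gene, at 13.2 FPKM (parental) and 6.28 FPKM (resistant). This is 2.09-fold lower, with a log2 ratio of -0.96 at the pseudocount of 1, -1.05 at 0.1 and -0.69 at 5. Of all genes compared, 2.96% had a ratio as low or lower. Its position is chr5:111496033-111512590, minus strand. NPC1 and NPC2 act together to release cholesterol from lysosomes, and their values went opposite ways. NPC1, the membrane partner, had 21.6 and 18.2 FPKM (-0.23), and NPC2, the soluble partner, had 25.0045 and 31.8 FPKM (0.34). NPC2 was the only sterol gene of the set above 0 on the deposited scaling.

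Fatty acid genes spread more widely than the sterol enzymes. Of the 12 compared, 8 (66.7%) lay below 0, near the 55.6% of all genes. Their median was -0.22 and their range was from -1.10 to 0.44, whereas the 17 sterol enzymes ranged from -0.53 to -0.01. ACLY, the ATP citrate lyase that supplies cytosolic acetyl-CoA, had 95.7 FPKM (parental) and 83.4 FPKM (resistant), a log2 ratio of -0.20. FASN, which builds palmitate, had 118 and 82.8 FPKM (-0.51). It passed -0.5 narrowly and lay between -0.49 and -0.44 at a pseudocount of 5, after division by the median ratio and with an equal sum without MTRNR2L loci. FASN lies on chromosome 17 from 82078333 to 82098332.

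SCD, the desaturase that makes oleate and palmitoleate, had the largest difference in FPKM of the set. It had 136 FPKM (parental) and 64.7 FPKM (resistant), 2.103-fold lower (log2 ratio -1.06, and -0.99 with an equal sum without MTRNR2L loci). The next largest difference in FPKM was that of FDPS. SCD lies on chromosome 10 from 100347124 to 100364834. The desaturases of polyunsaturated fatty acids lay near or above 0: FADS1 had 40.3 and 38.3 FPKM (-0.07), and FADS2 had 9.56 and 12.1 FPKM (0.31). A further FADS2 locus had 8.39 and 11.9 FPKM (0.46). Among the elongases, ELOVL6, which extends palmitate to stearate, had 13.1 and 9.31 FPKM (-0.45), and ELOVL5 had 55.05 and 46.1 FPKM (-0.25). ELOVL1, which extends saturated very long chains, had 38.3 and 52.2 FPKM (0.44), the highest ratio of the set. The 3 other loci named ELOVL6 had between 1.69 and 4.51 FPKM and ratios between -0.12 and 0.0063.

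Fatty acids are joined to coenzyme A by the ACSL enzymes before use. ACSL3, which sits on the endoplasmic reticulum and lipid droplets, had 19.6 FPKM (parental) and 8.59 FPKM (resistant), 2.28-fold lower and the lowest ratio of the set (-1.10, and -0.86 at a pseudocount of 5). ACSL4, which prefers polyunsaturated chains, had 14.1 and 9.09 FPKM (-0.58, and -0.44 at a pseudocount of 5). ACSL1 had 11.7 and 12.3 FPKM (0.07, and -0.0076 with an equal sum). ACSL3 was thus the most abundant of the 3 in parental cells and the least abundant in resistant cells. Their summed FPKM was 45.4 in parental and 30.0 in resistant cells. ACSL3 lies on chromosome 2 from 222860934 to 222944639 and ACSL4 on chromosome X from 109624244 to 109733403. LPIN1, a phosphatidate phosphatase of glycerolipid synthesis, had 14.2 and 16.1 FPKM (0.17).

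The set was then placed among related genes. The genes named here beyond the set and the naming rule were chosen after their values were seen. In the elongase family, ELOVL7 had 3.46 and 12.8 FPKM (1.63), ELOVL2 had 0.529 and 1.76 FPKM (0.85, and 0.29 at a pseudocount of 5) and ELOVL4 had 7.26 and 10.3 FPKM (0.45). With ELOVL1 this made 4 of 6 elongase genes higher and ELOVL5 and ELOVL6 lower, against 55.6% of all genes below 0. The 6 elongases summed to 118 FPKM (parental) and 132 FPKM (resistant). SCD5, the second stearoyl-CoA desaturase, had 6.24 and 4.19 FPKM (-0.48), so that both desaturases of this kind were lower. FADS3 had 6.33 and 9.06 FPKM (0.46). LPIN3 had 5.75 and 10.4 FPKM (0.75), with 2.14 and 8.51 FPKM in a further locus (1.601) and 1.16 with its loci summed. LPIN2 had 5.73 and 5.61 FPKM (-0.03).

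**Figure D2:**
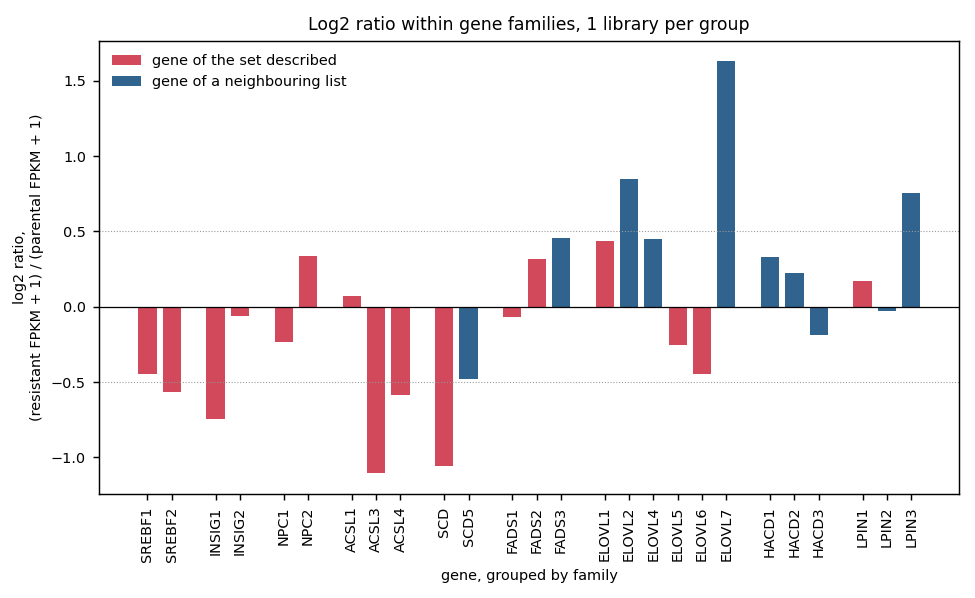
Log2 ratio, resistant over parental, of genes within families, 1 library per group, with bars from 0. Red bars are genes of the set and blue bars are relatives from neighbouring lists, and dotted lines stand at -0.5 and 0.5. ACSL3, SCD and INSIG1 stand lowest, and ELOVL7 and ELOVL2 stand highest.

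Related lists, chosen with earlier results of these data known, are given by count and median beside the values of all genes. Over all genes the median was -0.04 and 55.6% lay below 0. A log2 ratio of -1 or lower was reached by 2.7% of them, and 1 or higher by 3.28%. Other sterol synthesis and SREBP target genes had a median of -0.20, with 15 of 20 below 0. Of the 20, 2 had a log2 ratio of -1 or lower, against 2.7% of all genes. These were ALDOC, a glycolytic aldolase, with 18.97 and 5.81 FPKM (-1.55), and FAXDC2, a hydroxylase-like protein, with 2.09 and 0.386 FPKM (-1.16, and -0.40 at a pseudocount of 5). Genes that control the turnover of SREBPs and of their targets had a median of -0.24, with 14 of 16 below 0. PAQR3, which tethers SCAP and SREBP at the Golgi, had 102 and 49.3 FPKM (-1.04, and -0.97 with an equal sum without MTRNR2L loci), with -0.33 in a further locus, and TMEM33, an endoplasmic reticulum membrane protein, had 254 and 112 FPKM (-1.17).

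The branch that uses farnesyl diphosphate for products other than sterols had a median near that of all genes, at 0.03. Of the 21, 8 lay below 0, against 55.6% of all genes, and 13 above. COQ5, of ubiquinone synthesis, had 47.9 and 33.5 FPKM (-0.50), and the escort protein gene CHM had 27.1 and 21.6 FPKM (-0.31). RCE1, a protease of prenylated proteins whose locus was joined with C11orf80, had 18.1 and 23.3 FPKM (0.35), and RABGGTA, a subunit of a prenyltransferase, had 10.2 and 12.5 FPKM (0.27). The 21 ratios thus ranged from -0.50 to 0.35, and the median turned to -0.05 with an equal sum.

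Cholesterol export, storage and LXR genes had a median of -0.01, with 9 of 18 on each side of 0, against 55.6% of all genes below 0. SOAT1, which esterifies cholesterol for storage, had 196 and 122 FPKM (-0.68). The lipoprotein receptor SCARB1 had 61.9 and 34.3 FPKM (-0.83), but 7.32 and 7.30 FPKM in its second locus (-0.0046), and the sterol transfer protein gene GRAMD1C had 6.65 and 3.64 FPKM (-0.72), but 1.13 and 4.11 FPKM in a further locus, and -0.0043 with its loci summed. NCEH1, which hydrolyses cholesterol esters, had 15.3 and 20.5 FPKM (0.40). SOAT1 was thus lower and NCEH1 higher in the resistant library.

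Most other lists of fatty acid metabolism had medians near that of all genes. Other synthesis and elongation genes had a median of 0.02, and 2 of 21 had a log2 ratio of 1 or higher, against 3.28% of all genes. These were ELOVL7, above, and MLXIPL, the carbohydrate-responsive factor that drives lipogenic genes, with 3.47 and 9.28 FPKM (1.20, and 0.75 at a pseudocount of 5). Glycerolipid and phospholipid genes had a median of 0.03, with 14 of 30 below 0, against 55.6% of all genes. Here 2 of 30 had a log2 ratio of 1 or higher, against the same 3.28%: AGPAT9, an acyltransferase of the first step of glycerolipid synthesis, with 1.03 and 6.74 FPKM (1.93, and 0.96 at a pseudocount of 5), and CDS1, which makes CDP-diacylglycerol, with 3.40 and 15.01 FPKM (1.86). These genes are next to each other in the table. Fatty acid oxidation genes had a median of -0.05, and none of 27 passed 0.5 in either direction. Of all genes, 8.23% were at -0.5 or lower and 9.11% at 0.5 or higher. CPT1A, which admits fatty acids to mitochondria, had 13.4 and 18.1 FPKM (0.41), and HADHB and ACAD10 both had a ratio of -0.35. Lipid droplet genes had a median of 0.16, with 7 of 10 above 0 and 3 below, against 55.6% of all genes below 0. The fatty acid binding proteins FABP5 and FABP3 had 126 and 187 FPKM (0.57) and 2.63 and 4.07 FPKM (0.48), ABHD5, a coactivator of lipolysis, had 0.35 and HILPDA, an inhibitor of it, had 0.18.

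**Figure D3:**
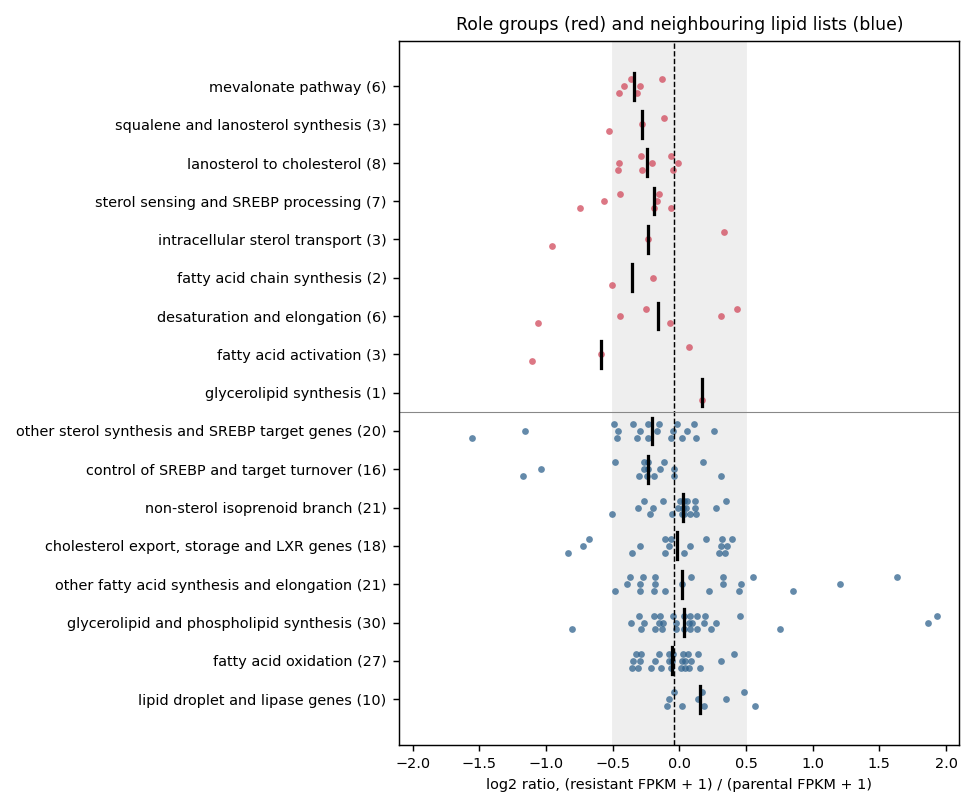
Log2 ratio of each gene by role group of the set (red) and by neighbouring list (blue), with the number of genes in brackets, 1 library per group. Black bars are medians, the dashed line is the median of all 12405 genes at -0.04, and the grey band spans -0.5 to 0.5. Medians of the role groups lie left of the dashed line except for glycerolipid synthesis, which holds LPIN1 alone.

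The genes of the set lie on 18 chromosomes, and the 8 genes at -0.5 or lower lie on 8 different chromosomes. Each gene was set beside up to 20 compared genes nearest to it, 10 on each side. The medians of these neighbours ranged from -0.27 to 0.16, and 32 of the 39 genes had a lower ratio than their neighbours' median. The same share over all compared genes was not computed. Since 34 of the 39 genes lay below 0 and the median of the neighbours' medians was -0.04, the count of 32 adds little about position. For the 8 lowest genes the neighbours' medians lay between -0.16 and 0.05. INSIG1, DHCR7 and SCAP were each lower than every one of their 20 neighbours. Of all genes, 4.59%, 9.87% and 28.1% had a ratio as low as theirs or lower. SCAP itself lay at -0.19, beside a neighbours' median of 0.09. For PMVK, HSD17B7 and ACLY, by contrast, 15, 10 and 12 of 20 neighbours were lower than the gene itself, and the neighbours' medians were -0.23, -0.27 and -0.27.

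**Figure D4:**
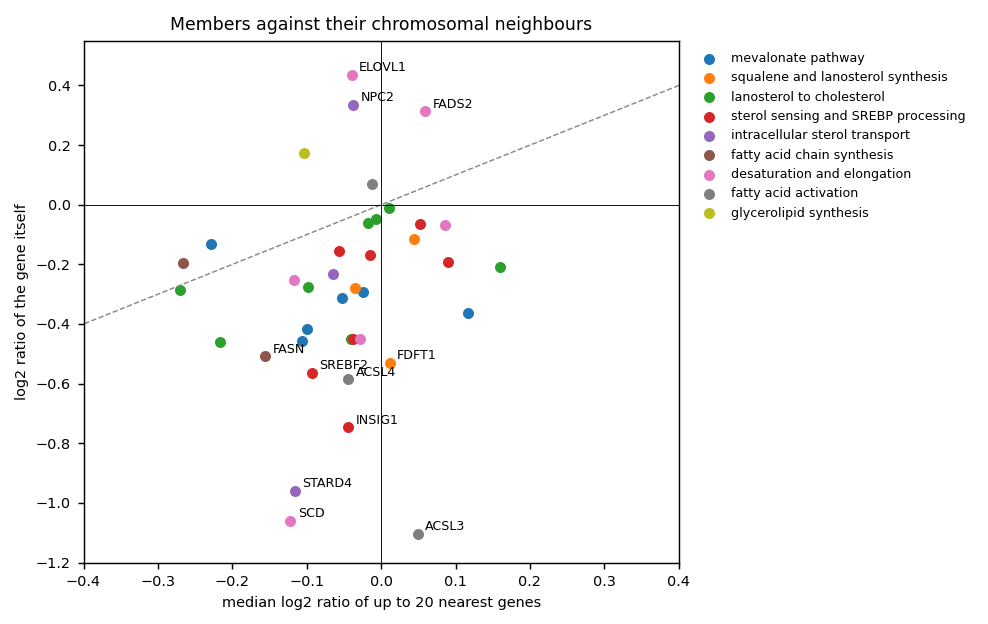
Log2 ratio of each of the 39 genes against the median log2 ratio of up to 20 nearest compared genes on its chromosome, coloured by role, 1 library per group. The dashed line marks equal values. Points lie below the line for 32 genes, a share not computed over all genes. Neighbours' medians stay between -0.27 and 0.16 while the genes reach -1.10.

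Of the libraries as a whole, the table lists no counts, so depth is unknown. FPKM summed to 1019550 in parental and 1081050 in resistant cells, of which the MTRNR2L loci held 6.84% and 16.2%. Fewer cells expressing a gene and less RNA per cell cannot be told apart. Of 13 markers of small cell lung cancer and neuroendocrine cells, 8 were in the table. UCHL1 and SOX2 were at 197 FPKM or more in both libraries. None of the 5 adipocyte and hepatocyte markers and none of 4 endothelial markers was in the table. Epithelial markers (2 of 5 in the table) and fibroblast markers (2 of 6) were low and differed between libraries: CDH1 had 0.536 and 4.81 FPKM, KRT8 had 2.09 and 2.36 FPKM, COL3A1 had 1.18 and 7.51 FPKM, and COL1A1 had 2.34 and 3.85 FPKM. Their part in the results above was not tested.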

How the data were processed

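RNA was purified from cultured cells and 500 ng went into strand-preserving libraries of polyadenylated RNA, per the labels' protocols. The deposited values are FPKM, per the file headers, in 1 column per library. TopHat2 and hg38 come per the submitters' processing notes. Which program computed FPKM, and with which annotation, is not given in the sources used here. The columns were matched to samples by the descriptions in the labels.

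Of 19217 loci, 2919 without a name and 23 with a date for a name were left out. Among the 12494 names, 2282 occurred at several loci and were represented by the most abundant. A name entered the comparison if it reached 1 FPKM in at least 1 library, which left 12405. All 39 genes of the set found in the table passed this filter. The log2 ratio used a pseudocount of 1. With 1 library per group there was no test. Rules of size were log2 ratios past 0.5 and past 1, set beside the share of all genes.

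Members and lists were chosen with earlier results of these data known. All genes of the set were named. Of each related list, genes past a log2 ratio of 1 in either direction were named, and otherwise the 4 with the largest log2 ratio by size. Some genes of these pathways are not reported here. Positions came from GENCODE release 29 (GRCh38, the build of hg38) by symbol, for 11683 genes. Promoters came from RefSeq (GRCh38.p14). Alternatives were pseudocounts of 0.1 and 5, no filter and 5 FPKM, 3 other scalings, summed loci, the second locus of a name, and size rules of 1 and 0.25. The calculation of ratios was tested on simulated data with planted changes larger than most of those described here. That test says nothing about noise between real libraries. Python 3.11.15, pandas 2.3.3, NumPy 2.4.6 and matplotlib 3.10.9 were used.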

Additional observations from a re-analysis of the deposited data

How the results depend on the processing

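No paired analysis was possible because each group had 1 library, and no library could be left out. The cause of the changes below was not tested. Of the 39 genes, 39 kept their side of 0 and of the 0.5 limit with a pseudocount of 0.1, without a filter, with a filter of 5 FPKM and with summed loci. With a pseudocount of 5, 37 did, with an equal sum 33, with an equal sum without MTRNR2L loci 31, with the median ratio 36 and with the second locus 37. A filter alters no ratio, and all 39 genes passed both filters, so these 2 settings could not change the count. Only 4 of the 39 genes have several loci, so summed loci and the second locus could change only those. The second locus changed FDFT1 and IDI1. The second locus gave 0.49 for FDFT1, 0.97 for IDI1, 1.27 for GRAMD1C and -0.0046 for SCARB1. The main loci had -0.53, -0.29, -0.72 and -0.83. The second loci of FDFT1 and IDI1 were low, at 0.506 and 1.11 FPKM and at 0.632 and 2.20 FPKM. Main loci of FDFT1, GRAMD1C and SCARB1 were listed among genes of their own strand only, and their second loci among genes of both strands. Whether these second loci are transcripts of the named genes was not tested. The count at -0.5 or lower was 13 with an equal sum (10.6% of all genes), 5 without MTRNR2L loci (7.05%), 2 with a size rule of 1 (2.7%) and 21 with 0.25 (21.9%). The count at 0.5 or higher was 1 without MTRNR2L loci (10.6% of all genes), 1, IDI1, with the second locus (12.9%) and 3 with a size rule of 0.25 (18.2%). The count at -1 or lower was 1 with a pseudocount of 5 (1.10% of all genes) and 1 without MTRNR2L loci (2.35%). With STARD4 it was 3 at a pseudocount of 0.1 (3.85%) and 3 with an equal sum (3.06%). With a pseudocount of 5, 6 genes were at -0.5 or lower beside 4.57% of all genes, and 4.69% of all genes were at 0.5 or higher. The median of desaturation and elongation was -0.24 with an equal sum, -0.094 without MTRNR2L loci and -0.092 with the second locus. The median of sterol sensing was -0.13 without MTRNR2L loci, and that of squalene and lanosterol synthesis was -0.11 with the second locus.

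Medians of lists near 0 turned with small shifts. Export and storage had -0.0032 with a pseudocount of 5, 0.035 with a filter of 5 FPKM, -0.087 with an equal sum, 0.050 without MTRNR2L loci, 0.026 with the median ratio, 0.015 with summed loci and 0.015 with the second locus. Fatty acid oxidation had -0.13 with an equal sum, 0.010 without MTRNR2L loci and -0.014 with the median ratio. Glycerolipid and phospholipid synthesis had 0.0032 with a filter of 5 FPKM, -0.044 with an equal sum, 0.096 without MTRNR2L loci, 0.073 with the median ratio, 0.052 with summed loci and 0.072 with the second locus. The isoprenoid branch had -0.053 with an equal sum, 0.092 without MTRNR2L loci and 0.070 with the median ratio. Other fatty acid synthesis had -0.067 with an equal sum, 0.083 without MTRNR2L loci, 0.059 with the median ratio and 0.0066 with the second locus. Lipid droplet genes had 0.075 with an equal sum. Depth limits each value by an unknown amount, since the values carry no counts.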

Other observations

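Genes that handle cholesterol in lysosomes had ratios on both sides of 0. They were chosen after their values were seen. LIPA, the acid lipase that frees cholesterol from lipoprotein esters, had 41.7 FPKM (parental) and 49.96 FPKM (resistant), a log2 ratio of 0.26, and SCARB2, a lysosomal membrane protein, had 41.1 and 52.5 FPKM (0.34), beside the 0.34 of NPC2. STARD3, a sterol carrier of late endosomes, had 18.6 and 14.97 FPKM (-0.30), beside the -0.23 of NPC1.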
